A study of Mus musculus with 8 samples.

Results

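*Retnla*, *Lcn2*, *Chil1*, *Pglyrp1* and *S100a9* encode secreted proteins of innate defence, several of which are also followed as markers of allergic airway disease. These 5 of the 812 genes in the deposited comparison were selected by name, and the choice was made from their measured values in the same comparison, in which all 5 lay well above WT. Their direction, the size of their differences and their ranks are therefore a description and are given with no test. All 5 were found in the table under the symbol given.

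The cells were type II alveolar epithelial (AT2) cells, which make surfactant, from C57BL/6 mice, and the labels describe them as cultured primary cells. The WT group came from RhoA fl/fl mice, labelled wildtype, which carry the floxed allele without Cre. The RhoA_KO group came from Sftpc-cre;RhoA fl/fl mice. Their Cre recombinase is driven by the promoter of *Sftpc*, a surfactant protein gene, and removes the small GTPase RhoA. The study saw *Sftpc* in basal cells too, but describes the loss of RhoA in AT2 and not in basal cells. The labels list 4 samples of each genotype, and state that all were exposed for 16 h to cockroach extract (CRE), at 50 μg/mL, with no untreated sample among them. The paper instead describes the sequenced AT2 cells as taken from the lungs of mice with allergen-induced asthma. Whether the cells met CRE in culture, in the mouse or in both is therefore not settled for any value below. Ages are not given in the sources used here, and AT2 cells had been enriched with magnetic beads against leukocyte, erythroid and Sca-1 antigens, followed by collection of the cells that did not adhere to dishes coated with mouse IgG. Each gene has 1 FPKM value per genotype, fragments sequenced after correction for library size and transcript length. It is the authors' group value. The spread between samples, their depth and the samples that entered each value are not known from it, so replicate error could not be weighed for any value below. *Rhoa* and *Sftpc* were not analysed here, and the loss of RhoA could not be checked in these values.

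Airway and alveolar epithelia release proteins that bind microbial products, withhold nutrients from microbes or signal to leukocytes. Lipocalin 2 (*Lcn2*) captures bacterial siderophores and so starves bacteria of iron, peptidoglycan recognition protein 1 (*Pglyrp1*) binds bacterial cell wall, and S100A9, which pairs with S100A8 to form calprotectin, chelates zinc and manganese and signals to leukocytes. RELMα (*Retnla*, also known as FIZZ1) and the chitinase-like protein BRP-39 (*Chil1*, the mouse counterpart of YKL-40) are induced in lung epithelium and macrophages during type 2 inflammation, RELMα through IL-4, IL-13 and STAT6. *Lcn2* is a well known target of NF-kB and C/EBP factors downstream of IL-1 and IL-17. *Lcn2*, *Pglyrp1* and *S100a9* are also abundant transcripts or granule proteins of the neutrophil lineage.

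The genes lie on 5 different chromosomes. In the authors' table, whose loci match GRCm38, *Retnla* (ENSMUSG00000061100.5) lies at chr16:48842551-48844461 on the plus strand, *Lcn2* (ENSMUSG00000026822.14) at chr2:32384633-32388252 on the minus strand and *Chil1* (ENSMUSG00000064246.10) at chr1:134182176-134190181 on the plus strand. *Pglyrp1* (ENSMUSG00000030413.7) lies at chr7:18871331-18890459 on the plus strand and *S100a9* (ENSMUSG00000056071.12) at chr3:90692632-90695721 on the minus strand. Each locus equals the span of the gene in GENCODE M21. The main transcript has 4 exons for *Retnla*, 6 for *Lcn2*, 10 for *Chil1*, 3 for *Pglyrp1* and 3 for *S100a9*. The exons of these genes overlap those of 0 other annotated genes. The main transcript of each shares 0 stretches of 50 bases with transcripts of any other gene, and their other transcripts were not searched.

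The sequences just before the transcription start are shown for the 4 genes whose 200 bases hold a match to a motif of a factor named above or to a TATA box, since the genes were higher together. They are RefSeq promoters on GRCm38.p6, each read 5′ to 3′ on the strand of the gene and ending at the base before the RefSeq start, at chr16:48842409-48842608 for *Retnla*, chr2:32387740-32387939 for *Lcn2*, chr1:134181956-134182155 for *Chil1* and chr3:90695722-90695921 for *S100a9*. Capitals mark the matches.
Retnla: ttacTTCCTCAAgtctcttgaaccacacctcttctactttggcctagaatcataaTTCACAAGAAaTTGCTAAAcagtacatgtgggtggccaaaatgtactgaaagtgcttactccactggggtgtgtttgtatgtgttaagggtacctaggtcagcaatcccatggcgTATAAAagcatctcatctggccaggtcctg
Lcn2: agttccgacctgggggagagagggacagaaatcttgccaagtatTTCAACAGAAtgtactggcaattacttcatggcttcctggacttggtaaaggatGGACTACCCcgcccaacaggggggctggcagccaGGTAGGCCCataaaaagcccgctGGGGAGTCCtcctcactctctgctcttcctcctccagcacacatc
Chil1: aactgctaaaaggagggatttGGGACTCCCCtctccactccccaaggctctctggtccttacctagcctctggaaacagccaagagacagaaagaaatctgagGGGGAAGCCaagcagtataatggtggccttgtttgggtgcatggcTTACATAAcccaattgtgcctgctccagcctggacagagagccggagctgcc
S100a9: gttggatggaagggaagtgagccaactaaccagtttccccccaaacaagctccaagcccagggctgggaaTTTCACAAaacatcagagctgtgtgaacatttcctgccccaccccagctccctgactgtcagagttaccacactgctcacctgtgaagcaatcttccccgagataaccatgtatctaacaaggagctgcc

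Motifs were searched on both strands in the window from 250 bases before to 50 bases after the start, and positions are given as bases before the start. The C/EBP motif was written TTNNGNAA, the NF-kB motif GGGNNNNCC, the STAT3 motif TTCNNNGAA, and the STAT6 motif as TTC and GAA with 4 bases between them. The *Retnla* promoter holds TATAAA at 30, the STAT6 match TTCACAAGAA at 145, and C/EBP matches at 134, 196 and 222, the last outside the stretch shown. The *Lcn2* promoter holds 3 NF-kB matches, at 45, 68 and 102, the STAT6 match TTCAACAGAA at 156 and a C/EBP match at 216, outside the stretch shown. The *Chil1* promoter holds NF-kB matches at 97, 178 and 179, of which those at 178 and 179 overlap on opposite strands, and a C/EBP match at 52. The *S100a9* promoter holds C/EBP matches at 130 and 236 and a TATAAA at the start base itself, the latter pair outside the stretch shown. The *Pglyrp1* promoter holds an NF-kB match at 232 and no other match. The 200 bases before the RefSeq start lie within the gene's annotated span for *Pglyrp1* and *Lcn2*, and partly within it for *Retnla*. These spans begin upstream of that start. The start of the main GENCODE transcript lies 248 bases downstream of the RefSeq start for *Chil1*, and 58 upstream for *Retnla* and *Lcn2*. It differs by 10 bases for *Pglyrp1* and *S100a9*. From the start of the main *Chil1* transcript, the *Chil1* matches would lie outside the window. The GENCODE span of *Chil1* begins at 134182176, however, near the RefSeq start at 134182156. The counts below hold for the RefSeq starts only.

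A C/EBP match was thus present in 4 of the 5 promoters, against 40.7% of all 32851 RefSeq promoters of the same length, and an NF-kB match in 3 of 5, against 43.8%. The STAT6 motif was present in 2 of 5 promoters, against 6.95%, TATAAA in 2 of 5, against 13.6%, and the STAT3 motif in 0 of 5, against 8.30%. Of the 812 table genes, 604 were matched to a promoter, and a gene counted if any of its promoters held the motif. The 32851 were counted promoter by promoter, so the shares are not strictly the same measure. Over the 604 genes, the shares were 40.9% for C/EBP, 62.4% for NF-kB, 7.95% for STAT6, 17.1% for TATAAA and 10.9% for STAT3. NF-kB matches were thus about as common in the table as among the 5. No motif was held by all 5 promoters. These matches are letters in a window and say nothing of binding in AT2 cells.

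*Retnla* was among the genes with the largest differences of the table. It stood at 9.72 FPKM in WT and 160.9 FPKM in RhoA_KO AT2 cells, a 16.6-fold difference, or 3.92 in log2(FPKM + 1), RhoA_KO minus WT, the scale used for every difference below. By its level it stood at rank 465 of 812 in WT and at rank 59 in RhoA_KO cells. On the log2(FPKM + 1) scale its difference was at rank 1 of 812, beside *Slc26a4* at 3.91. By the plain ratio of FPKM, which has no pseudocount, *Retnla* was at rank 3. The paper names *Slc26a4* as the most upregulated gene. It lists *Retnla*, spelled Retnal, among the most upregulated and reports its increase by qPCR as well.

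*Lcn2* and *Chil1* were the most abundant of the 5 genes and had nearly the same values. The FPKM of *Lcn2* was 86.7 in WT and 531.3 in RhoA_KO cells, 6.13-fold higher, a difference of 2.60 at rank 6. That of *Chil1* was 81.1 in WT and 469.9 in RhoA_KO cells, 5.80-fold higher, a difference of 2.52 at rank 7. The ratio of *Lcn2* to *Chil1* was 1.07 in WT and 1.13 in RhoA_KO cells. In RhoA_KO cells they were the 17th and 21st most abundant of the 812 transcripts, against ranks 73 and 79 in WT, and by FPKM gained, 444.6 for *Lcn2* and 388.8 for *Chil1*, they stood at ranks 9 and 11. Their ranks by difference depend on the pseudocount, and by the plain ratio *Lcn2* was at rank 21 and *Chil1* at rank 26.

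*Pglyrp1* and *S100a9* were the least abundant of the 5 genes. The FPKM of *Pglyrp1* was 9.11 in WT and 48.6 in RhoA_KO cells, 5.34-fold higher, a difference of 2.30 at rank 11. That of *S100a9* was 2.69 in WT and 16.5 in RhoA_KO cells, 6.14-fold higher, a difference of 2.25 at rank 12. The WT value of *S100a9* was the lowest of the 5 and stood at rank 687 of 812, so the pseudocount damps its difference most. By the plain ratio, *S100a9* was at rank 20 and *Pglyrp1* at rank 30. In FPKM gained, *S100a9* was at rank 241 with 13.8 and *Pglyrp1* at rank 114 with 39.5, while *Retnla* was at rank 28 with 151.2.

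**Figure D1:**
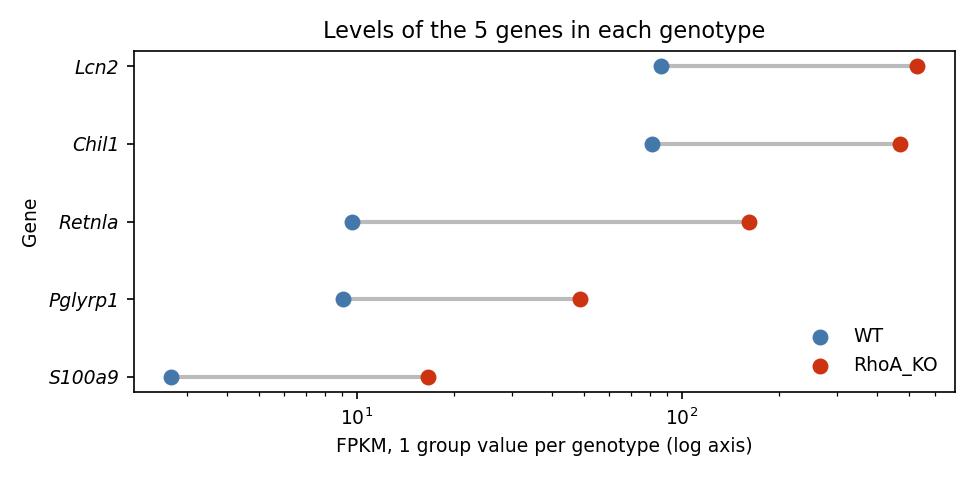
FPKM of the 5 genes (log axis), with 1 group value per genotype joined by a line for each gene, and no error bar because no value per sample was at hand. The RhoA_KO value lies to the right of the WT value for each gene, and the gap is widest for *Retnla*, from 9.72 to 160.9.

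FPKM is scaled for transcript length, so levels can be set side by side between the genes. The order of the levels was the same in both genotypes, *Lcn2*, *Chil1*, *Retnla*, *Pglyrp1* and *S100a9*. Neighbours in this order could not be told apart beyond their spread, which is unknown. In WT, *Retnla* exceeded *Pglyrp1* by a ratio of 1.07 and in RhoA_KO cells by 3.31. The ratio of *Lcn2* to *Retnla* was 8.92 in WT and 3.30 in RhoA_KO cells, whereas that of *Lcn2* to *S100a9* was 32.2 and 32.1. *Retnla* therefore stood apart from the other 4 genes, whose ratios between the genotypes lay between 5.34 and 6.14. Summed, the 5 genes came to 189.3 FPKM in WT and 1227 FPKM in RhoA_KO cells, 6.48-fold higher, or 0.312% and 2.01% of the FPKM total of the table.

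The table holds only genes that the authors marked significant, so its medians and shares describe those genes and not all genes measured. The paper itself reports fewer differentially expressed genes, after FDR correction, than the 812 marked here. The sources used here do not explain the gap. Of the 812 genes, 448 were higher and 364 lower in RhoA_KO cells, and the median difference was 0.65, or 0.94 over the higher genes alone, against a median of 2.52 over the 5. At least 2-fold higher, a difference of 1 or more, were 23.6% of the 812 genes, and at least 4-fold higher 2.46%, which is 20 genes. All 5 genes are among these 20, and since the same values chose them, nothing is read from this count. The other 15 include *Slc26a4*, the anion exchanger pendrin, *Pigr*, the receptor that carries IgA and IgM across epithelia, *Lbp*, which hands bacterial lipopolysaccharide to CD14, and *Lrg1*, an acute phase glycoprotein. *Pigr*, *Lbp* and *Lrg1* were picked from the 15 for a role in defence, after their values were seen. The 15 also hold genes not so picked with larger differences, among them the AT2 marker *Slc34a2* at 3.16. *Pigr* was 2.84 FPKM in WT and 16.8 FPKM in RhoA_KO cells, a difference of 2.22. *Lbp* was 5.30 and 24.6 FPKM, a difference of 2.02, and *Lrg1* was 5.64 and 25.8 FPKM, a difference of 2.01.

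**Figure D2:**
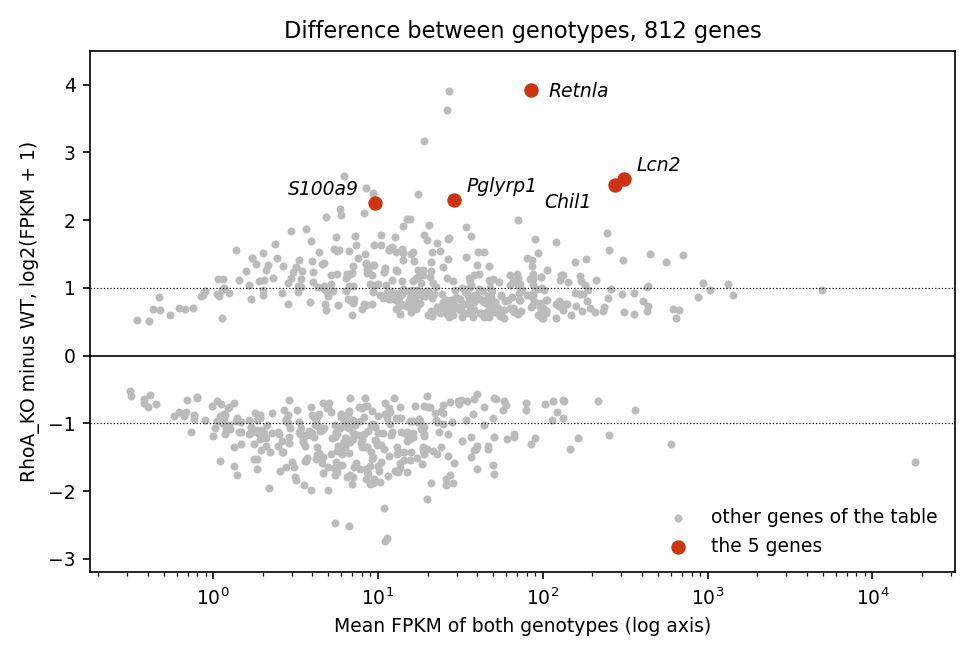
Difference between the genotypes in log2(FPKM + 1), RhoA_KO minus WT, against the mean FPKM of both genotypes (log axis) for the 812 genes, with the 5 genes named. They lie between 2.25 and 3.92 along the upper edge of the points, at mean FPKM values from 9.62 for *S100a9* to 309.0 for *Lcn2*.

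Of 40 secreted defence proteins listed, 12 were in the table, 5 of them the genes chosen for being high. Of the other 7, 6 were higher and 1 lower in RhoA_KO cells as deposited, against 448 and 364 of all 812 genes. Once the genotypes were scaled to the AT2 markers described below, 2, *Chia1* and *Lyz1*, were higher, against 155 of the 812. As deposited, the median difference of the 7 was 1.03, against 0.94 over the higher genes of the table and 0.65 over all 812. *Chia1*, the acidic chitinase that degrades chitin from arthropods and fungi, was 41.0 FPKM in WT and 137.7 FPKM in RhoA_KO cells, a difference of 1.72. The lysozyme *Lyz1*, which cleaves peptidoglycan, was 308.9 and 807.9 FPKM, a difference of 1.38, and its paralog *Lyz2* was 3358 and 6561 FPKM, a difference of 0.97. Reads of these close paralogs could have been divided between them.

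The lung collectins, which coat microbes for uptake, were also higher, *Sftpa1* with 864.3 FPKM in WT and 1802 FPKM in RhoA_KO cells and *Sftpd* with 286.0 and 585.2 FPKM, differences of 1.06 and 1.03. The protease inhibitor *Slpi* was 282.6 and 573.4 FPKM, a difference of 1.02. The exception was *Scgb1a1*, the club cell secretory protein and the most abundant transcript of the table, with 27285 FPKM in WT and 9204 FPKM in RhoA_KO cells, a difference of -1.57. In both genotypes, *Lcn2* and *Chil1* lay above *Chia1* and below *Slpi* in level. *Sftpa1*, *Sftpd* and *Lyz2* are also among the AT2 markers below. The 28 other listed genes were not analysed here.

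Within their own families, few relatives of the 5 genes were in the table. *Retnla* was the only 1 of 4 resistin-like genes, *Lcn2* of 18 lipocalin genes and *Pglyrp1* of 4 peptidoglycan recognition genes. *Chia1* was the other of 2 among 9 chitinase and chitinase-like genes. Of 16 S100 genes, *S100a7a*, which lies 34.0 kb from *S100a9*, was the other present, with 20.6 FPKM in WT and 38.5 FPKM in RhoA_KO cells, a difference of 0.87. *S100a8*, the partner of *S100a9* in calprotectin, was not analysed here.

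Receptors and partners of the 5 proteins were looked up as well. Of 19 listed, 4 were in the table and each of them was higher as deposited. After scaling to the AT2 markers 0 were higher, against 155 of all 812 genes. As deposited, 448 of the 812 genes were higher, and the median of the 4, 0.94, equals that of these higher genes. *Tlr4*, a receptor through which S100A8 and S100A9 signal, was 17.7 FPKM in WT and 39.3 FPKM in RhoA_KO cells, a difference of 1.11. *Tlr2*, which senses bacterial lipoproteins, was 13.1 and 23.0 FPKM, a difference of 0.77. *Ager*, the receptor RAGE, was 209.7 and 393.9 FPKM, a difference of 0.91, and the scavenger receptor *Cd36* was 174.4 and 344.9 FPKM, a difference of 0.98.

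Genes of the signals known to induce the 5 genes were looked up next. Of 33 genes of NF-kB, IL-17 and acute phase responses, 10 were in the table and all 10 were higher as deposited. After scaling to the AT2 markers 3 were higher, against 155 of all 812 genes. As deposited, the median difference of the 10 was 1.00 and 4 of them were at least 2-fold higher. Over the table, 448 of 812 genes were higher and 23.6% at least 2-fold higher. *Tnfaip3* and *Cd14* lay just under the 2-fold line on this scale and just over it by plain ratio, at 2.03 and 2.00. The neutrophil chemoattractants *Cxcl2* and *Cxcl3* had the largest differences of the 10 in log2(FPKM + 1), with 42.8 FPKM in WT and 117.8 FPKM in RhoA_KO cells for *Cxcl2* and 26.4 and 67.8 FPKM for *Cxcl3*, differences of 1.44 and 1.33. *Cxcl1*, another such chemokine, was 68.7 and 135.5 FPKM, a difference of 0.97. *Steap4*, an IL-17 and TNF responsive metalloreductase, was 0.824 and 3.39 FPKM, a difference of 1.27, and at 4.11 it had a larger plain ratio than *Cxcl2* and *Cxcl3*.

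The NF-kB inhibitors, themselves NF-kB targets, were higher by about as much. *Nfkbia* was 117.9 FPKM in WT and 244.5 FPKM in RhoA_KO cells, a difference of 1.05, and *Tnfaip3* was 31.5 and 63.9 FPKM, a difference of 1.00. *Nfkbiz*, the cofactor that *Lcn2* induction by IL-17 requires, was 20.6 and 31.9 FPKM, a difference of 0.61, the smallest of the 10. *Cebpa*, a C/EBP factor of alveolar epithelium, was 33.5 and 65.5 FPKM, a difference of 0.95. All 10 differences were smaller than those of the 5 genes, but the 5 were chosen for being high, so nothing is read from this.

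Of 28 genes of type 2 and alternative activation, the setting in which *Retnla* and *Chil1* are best known, only *Slc26a4* was in the table. *Slc26a4*, which IL-13 induces in airway epithelium, was 2.46 FPKM in WT and 51.1 FPKM in RhoA_KO cells, a difference of 3.91 against 3.92 for *Retnla*. With no replicate values, *Slc26a4* and *Retnla* cannot be ordered. The alarmin *Il33* was 10.4 and 31.9 FPKM, a difference of 1.53. Of the 5 epithelial cytokines listed, it alone was in the table.

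**Figure D3:**
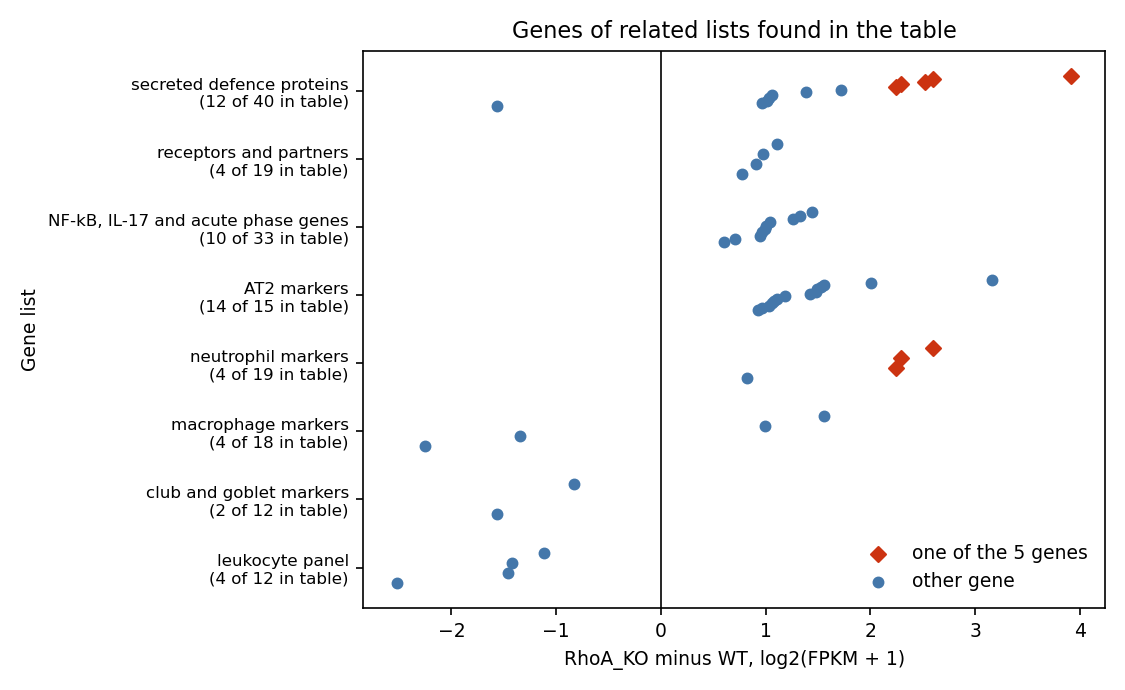
Difference between the genotypes in log2(FPKM + 1), RhoA_KO minus WT, for each gene found in the table, by gene list, with the 5 genes set apart by colour. As deposited, every gene of the NF-kB list and of the receptor list lies above 0, and every gene of the leukocyte list lies below 0.

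The labelled cell type was checked against its markers, and markers of other cells that could carry these transcripts were read beside it. Of 15 AT2 markers, 14 were in the table, and they summed to 6074 FPKM in WT and 12844 FPKM in RhoA_KO cells. Most of each sum was *Lyz2* alone, with 3358 FPKM in WT and 6561 FPKM in RhoA_KO cells. All 14 were higher as deposited, a count that scaling to their own median sets to 7 by construction, with a median difference of 1.31 and a range from 0.93 to 3.16. At least 2-fold higher were 12 of the 14, against 23.6% of the table, in which 448 of 812 genes were higher. *Retnla* had a larger difference than any of these 14, and the other 4 genes a larger one than 13 of them, *Slc34a2* being the exception. The 5 genes were chosen for being high on these same values, so nothing is read from this order. In such bulk samples, a larger share of a cell type and more RNA per cell of that type cannot be told apart, and the part of the AT2 shift in the 5 genes was not tested.

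Neutrophils carry *Lcn2*, *Pglyrp1* and *S100a9*. Of 19 neutrophil markers, 4 were in the table, these 3 genes and *Mmp8*, the neutrophil collagenase, with 4.64 FPKM in WT and 8.97 FPKM in RhoA_KO cells, a difference of 0.82 that was below 0 after scaling to the AT2 markers. The sum of the 4 was 103.1 FPKM in WT and 605.4 FPKM in RhoA_KO cells, most of it *Lcn2*. Since 3 of the 4 were chosen for being high, nothing is read from this sum, and *Mmp8* alone was not so chosen. The other 15, among them *Ly6g*, *Mpo*, *Elane* and *S100a8*, were not analysed here, nor were the 9 eosinophil markers, so the part of neutrophils was not tested beyond this. Of a panel of 12 leukocyte genes, 4 were in the table, the pan-leukocyte genes *Ptprc* and *Laptm5* and the T cell genes *Cd4* and *Cd8a*. All 4 were at least 2-fold lower, against 364 of all 812 genes lower and 231 at least 2-fold lower. *Ptprc*, which encodes CD45, was at 21.5 and 7.41 FPKM, *Laptm5* at 28.4 and 9.72 FPKM, *Cd4* at 12.0 and 1.28 FPKM and *Cd8a* at 5.61 and 2.06 FPKM. Their sum was 67.6 FPKM in WT and 20.5 FPKM in RhoA_KO cells, and their median difference was -1.44.

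Macrophages can carry *Retnla* and *Chil1*. Of 18 macrophage markers, 4 were in the table, 2 higher and 2 lower as deposited, against 448 and 364 of all 812 genes. After scaling to the AT2 markers 1 was higher, against 155 of the 812. The sum of the 4 was 223.3 FPKM in WT and 515.3 FPKM in RhoA_KO cells, most of it from *Plet1* and *Cd14*, while *Gpnmb* and *Lpl* were lower. *Cd14*, the lipopolysaccharide co-receptor, was 65.8 and 132.0 FPKM, a difference of 0.99 that was below 0 after scaling to the AT2 markers, and *Plet1* was 126.9 and 376.1 FPKM, a difference of 1.56. *Gpnmb* was 18.6 and 3.13 FPKM, a difference of -2.25, and *Lpl* was 11.9 and 4.08 FPKM, a difference of -1.35. Of 12 club and goblet cell markers, *Scgb1a1* and *Gabrp* were in the table, both lower, against 364 of all 812 genes. Their sum was 27301 FPKM in WT and 9212 FPKM in RhoA_KO cells.

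*Scgb1a1* alone made up 45.0% of the FPKM total of the table in WT and 15.1% in RhoA_KO cells, which bears on how the genotypes are scaled. The totals of the table were almost equal, 60658 and 61147 FPKM. Scaled to equal totals without *Scgb1a1*, differences would drop by up to 0.64, and by less for low genes, since the rest of the table was 1.56-fold higher in RhoA_KO cells. Scaled to the median ratio of the AT2 markers, they would drop by up to 1.33, which is a ratio of 2.52. Both scalings were chosen after seeing the data. Under the latter, *Retnla* was 2.60 higher, *Lcn2* 1.27, *Chil1* 1.19, *S100a9* 1.04 and *Pglyrp1* 1.01, the last pair close to the 2-fold line. Since the 5 genes were chosen on these same values, nothing is read from where they lie after scaling. The table itself then held 14 genes at least 2-fold higher and 351 at least 2-fold lower, against 192 and 231 as deposited and 47 and 343 without *Scgb1a1*.

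**Figure D4:**
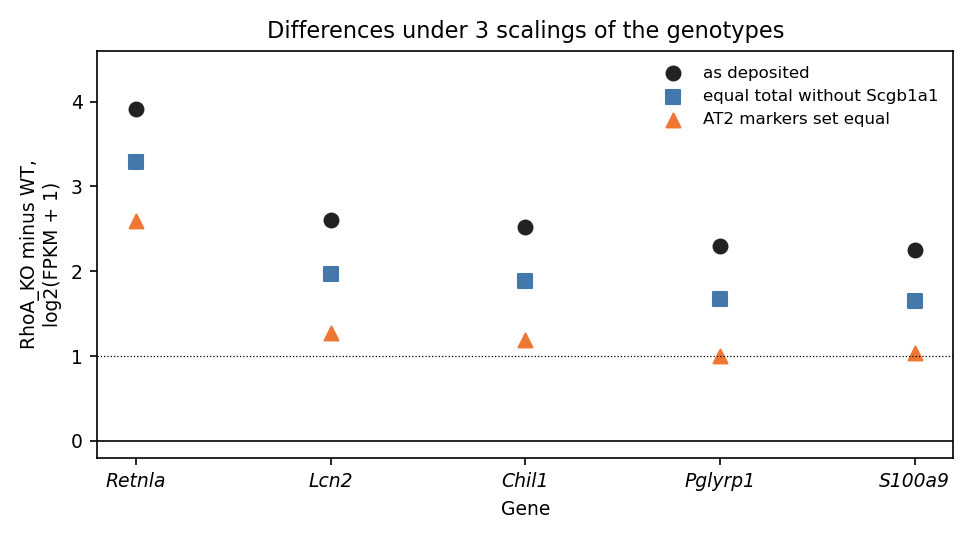
Difference between the genotypes in log2(FPKM + 1), RhoA_KO minus WT, of the 5 genes as deposited, scaled to equal totals without *Scgb1a1*, and scaled to the AT2 markers, with a dotted line at a 2-fold difference. *Retnla* goes from 3.92 to 2.60 and *Pglyrp1* from 2.30 to 1.01, and each of the 15 points lies above the dotted line.

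The genes whose pair of values lay nearest to those of each gene were found by the distance between their log2(FPKM + 1) values over the 2 genotypes, which rewards an equal level as well as an equal difference. *Lcn2* and *Chil1* were nearest to each other, at a distance of 0.20, and the next for both was *Scd1*, a fatty acid desaturase of surfactant lipid synthesis, with 108.5 FPKM in WT and 383.3 FPKM in RhoA_KO cells, at 0.57 from *Lcn2* and 0.51 from *Chil1*. *S100a9* was nearest to *Pigr*, at 0.06, and to the ectonucleotidase *Entpd1*, at 0.17, which had 2.29 and 16.4 FPKM. *Pglyrp1* was nearest to the interferon-inducible *Ifi202b*, with 11.8 and 41.2 FPKM, and to *Il1f9*, an epithelial cytokine of the IL-1 family, with 12.0 and 42.1 FPKM, both at 0.41. *Retnla* had no close match, its nearest being the AT2 marker *Lamp3*, with 27.4 and 113.4 FPKM, at 1.49, and *Dram1*, with 16.2 and 57.6 FPKM, at 1.62. With 2 values per gene, such likeness is a description of level and ratio alone.

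Few genes of the table lay near the 5 on the chromosome. Within 1 Mb, *Retnla* had *Cip2a* as the only other gene of the table, 149.7 kb away, with 12.3 FPKM in WT and 5.16 FPKM in RhoA_KO cells, a difference of -1.11. *Pglyrp1* had *Fosb*, 412.2 kb away, with 12.7 and 24.1 FPKM, a difference of 0.88. *S100a9* had *S100a7a*, described above, and *Lcn2* and *Chil1* had 0 such neighbours.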

How the data were processed

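RNA-seq of CRE-exposed AT2 cells of both genotypes was used, with 4 samples per genotype by the labels. The authors prepared stranded mRNA libraries and aligned the reads with STAR 2.7.2b to GRCm38, per the study's methods. The submitters' processing notes name mm9 and Partek, but 651 of the 812 loci equal gene spans of GENCODE M21 on GRCm38 and all 812 identifiers are in it. The authors' deposited FPKM values are 1 per genotype, normalized for transcript length and fragments sequenced, in the layout of a Cuffdiff comparison. Its fold change, test statistic, p-value, q-value and significance columns are the authors' own comparison and were not used. All 812 genes carry the mark of significance, so genes without it were not analysed here. Depth is unknown, and neither an interval nor a test could be made from group values. The planned tests across samples were therefore not run.

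Computed here were differences in log2(FPKM + 1), which understate low genes, ranks, counts over 16 gene lists, distances between genes and motif matches in RefSeq promoters. The 5 genes and the lists were chosen with earlier results of these data known. Named were the 5 genes, list genes in the table, their 2 nearest genes, neighbours within 1 Mb, and genes at least 4-fold higher with a role in defence, the last chosen after their values were seen. The code for ranks and counts was tested on simulated data. Scripts ran in Python 3.11.15 with NumPy 2.4.6, pandas 2.3.3 and, for plots, Matplotlib 3.10.9.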

Additional observations from a re-analysis of the deposited data

How the results depend on the processing

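Pseudocounts of 0.1, 0.01 and 0, a mean FPKM of at least 1 or 5, other fold thresholds and scaling to equal totals were tried, and 2 scalings were added after seeing the data. Of 40 recomputed differences of the 5 genes, 0 reversed and 0 dropped below 2-fold. For the pseudocounts this holds largely, and for the filters on mean FPKM wholly, by construction, so the scalings alone could have moved a gene below it. The difference ranged from 2.60 to 4.05 for *Retnla*, 1.27 to 2.62 for *Lcn2*, 1.19 to 2.54 for *Chil1*, 1.01 to 2.42 for *Pglyrp1* and 1.04 to 2.62 for *S100a9*. Ranks by difference moved more: with no pseudocount, *Lcn2* went from 6 to 21, *Chil1* from 7 to 26, *Pglyrp1* from 11 to 30, *S100a9* from 12 to 20 and *Retnla* from 1 to 3, and *Retnla* was at rank 2 under both added scalings. All 5 genes also passed a 4-fold threshold as deposited. The table held 423 genes past 2-fold in either direction, 795 past 1.5-fold and 26 past 4-fold, by construction of the threshold. Scaled to the AT2 markers, 7 of the secreted defence genes, the 5 chosen genes among them, were higher against 11, and 3 of the NF-kB, IL-17 and acute phase genes against 10. Of all 812 genes, 155 were then higher against 448. These counts shift because the factor lowers every RhoA_KO value. No paired analysis was possible because each genotype has a group value only, and leaving out a replicate could not be run for the same reason. With depth and replicate spread unknown, how secure the 5 ratios are could not be compared. That of *S100a9* rests on the lowest WT value.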
